A study of Mus musculus with 6 samples.

Results

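The genes described here were 10 members of the family of regulators of G protein signalling (RGS): *Rgs1*, *Rgs2*, *Rgs3*, *Rgs4*, *Rgs5*, *Rgs10*, *Rgs12*, *Rgs16*, *Rgs18* and *Rgs19*. They were chosen by name, as every row of the array table that carries one of these symbols, and they account for 10 of 31508 gene symbols and 23 of 45281 probes. Both groups were bone tubes, the cortical shafts of tibia and femur, from C57BL6 mice labelled as 3 months old. Flushing and digestion with collagenase and trypsin served to remove marrow and surface cells and to leave osteocytes in their matrix. Markers of neutrophils, red cells and osteoclasts still had clear signal, as given below. The control group was cultured without hormone, and the PTH group was cultured for 24 h with 250 nM of the 1-34 fragment of parathyroid hormone. There were 3 arrays in each group, and each array measured RNA of a preparation of about 10 bones pooled from 4 to 5 mice. The labels do not say that the preparations came from separate mice or days, so the p-values measure the spread between these preparations.

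RGS proteins speed up the hydrolysis of GTP on the alpha subunits of heterotrimeric G proteins and so shorten the signal that an activated receptor sends. The PTH receptor couples mainly to Gs, which raises cAMP, and also to Gq, which activates phospholipase C. Small RGS proteins of the R4 subfamily (*Rgs1*, *Rgs2*, *Rgs3*, *Rgs4*, *Rgs5*, *Rgs16* and *Rgs18*) act mostly on Gi and Gq, *Rgs10* and *Rgs12* belong to the R12 subfamily, and *Rgs19* belongs to the RZ subfamily. *Rgs2* is known as a gene induced by cAMP and by PTH in bone cells.

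In the PTH arrays *Rgs16* was 2.80-fold lower than in control and *Rgs3* was 2.57-fold lower, both with signal above background on all 6 arrays. *Rgs2* was higher with PTH, by 2.92-fold in the reported processing, but its control signal was above background on 1 of 3 arrays and the size moved with the background treatment. The other 6 genes tested were not called, and no probe of *Rgs18* was above background on any array. A gene is called here when its brightest tested probe has an adjusted p under 0.05 in limma over all probes tested and a fold change of at least 1.5. By this rule 3 of the 9 RGS genes tested were called, 1 higher and 2 lower, where 1.73% of all 11979 genes tested were called. The count includes *Rgs2*, which passed the filter on dim probes through the PTH arrays.

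The promoters of these 3 genes are shown because their messages moved in different directions. Each runs from 250 bases before to 50 bases after a transcription start in RefSeq on assembly GRCm38.p6, written 5′ to 3′ on the strand of the gene. Capitals mark matches, on either strand, to 5 short motifs. The half-site of the cAMP response element was searched as TGACG and the site of the AP-1 transcription factors as TGANTCA. For the core bound by RUNX factors the letters were TGTGGT, for the TATA box of core promoters they were TATAAA, and for the GC box they were GGGCGG. The promoter set taken from RefSeq holds 1 start for *Rgs2* and *Rgs16* and 2 for *Rgs3*. It holds none for *Rgs1* and *Rgs18*, so it may also leave out other starts. The array table does not say which *Rgs3* transcript the array probe reads.
Rgs2, chr1:144004100-144004399, minus strand: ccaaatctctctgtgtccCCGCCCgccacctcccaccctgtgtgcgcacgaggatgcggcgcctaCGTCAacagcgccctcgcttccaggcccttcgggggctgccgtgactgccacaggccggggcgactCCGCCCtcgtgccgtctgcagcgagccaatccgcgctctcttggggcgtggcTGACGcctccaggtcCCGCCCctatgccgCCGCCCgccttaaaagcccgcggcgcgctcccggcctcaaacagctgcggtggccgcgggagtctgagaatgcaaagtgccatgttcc
Rgs16, chr1:153740103-153740402, plus strand: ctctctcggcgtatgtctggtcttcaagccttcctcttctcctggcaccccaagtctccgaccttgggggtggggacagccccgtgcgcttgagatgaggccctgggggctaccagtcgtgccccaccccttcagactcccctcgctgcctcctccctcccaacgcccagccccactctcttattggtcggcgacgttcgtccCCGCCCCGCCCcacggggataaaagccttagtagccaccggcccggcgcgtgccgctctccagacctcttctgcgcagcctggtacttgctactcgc
Rgs3 first start, chr4:62559597-62559896, plus strand: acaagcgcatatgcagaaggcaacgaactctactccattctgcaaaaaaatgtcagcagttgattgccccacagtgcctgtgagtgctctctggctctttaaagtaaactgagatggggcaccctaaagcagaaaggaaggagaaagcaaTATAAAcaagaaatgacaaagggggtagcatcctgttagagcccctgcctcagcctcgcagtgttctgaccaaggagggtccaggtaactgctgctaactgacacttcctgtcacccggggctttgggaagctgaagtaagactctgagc
Rgs3 second start, chr4:62619422-62619721, plus strand: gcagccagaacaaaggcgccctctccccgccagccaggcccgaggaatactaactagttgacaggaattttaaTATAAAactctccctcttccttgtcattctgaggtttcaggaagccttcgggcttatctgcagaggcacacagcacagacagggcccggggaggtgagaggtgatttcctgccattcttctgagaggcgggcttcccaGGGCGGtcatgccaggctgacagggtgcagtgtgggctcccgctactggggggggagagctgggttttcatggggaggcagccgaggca
The *Rgs2* window holds the half-site TGACG 2 times, 185 and 67 bases before the start, and 4 GC boxes. The *Rgs16* window holds 2 GC boxes. The *Rgs3* windows hold the TATA letters 100 bases before the first start and 177 bases before the second. The second window also holds a GC box. Whether the letters act as a TATA box at these distances was not tested. Among all 32851 promoters of the same length, 20.8% hold the half-site, 35.7% a GC box, 13.6% the TATA letters, 16.8% the RUNX letters and 7.81% the AP-1 letters. The full element TGACGTCA, which contains the half-site, was in 1.79% of all promoters and in none of the 12 promoters listed for 8 of the 10 genes. The half-site was in 3 of those 12, for *Rgs2*, *Rgs4* and *Rgs12*, so it was present also where no change was called. These matches describe the letters in the windows and do not show binding.

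*Rgs2*, which acts preferentially on Gq and also restrains adenylyl cyclase, was the RGS gene that rose. The normalized log2 signal of its tested probe was 4.61, 4.89 and 5.00 without hormone and 6.22, 6.62 and 6.31 with PTH. The groups did not overlap, and the gap between the groups was wider than the range within either. The means were 4.84 ± 0.20 and 6.38 ± 0.21 (SD, n = 3 each), a log2 difference of 1.55 (SE 0.16, 95% interval 1.17 to 1.92, limma adjusted p = 0.0058). In the signal as deposited, before background correction, the probe read 114, 134 and 119 in control and 151, 189 and 209 with PTH, so the control values sat close to the array background of 105 to 121. This probe was above background on 1 of 3 control arrays and on all 3 PTH arrays, which means that it passed the filter on dim probes mainly through the group in which it was higher. The size of the rise moved with the background treatment. With quantile normalization and no background correction it was 0.56, below the fold required although the limma adjusted p was 0.00085. With background subtraction it was 2.06, but there every value under 16 after subtraction was raised to 16. As the control signals lay close to background, this size depends on that floor.

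The second *Rgs2* probe read 4.54, 4.49 and 4.47 in control and 5.78, 4.96 and 5.67 with PTH. Only 2 arrays, both with PTH, put it above background, too few for a test. Set against the lowest signals above background on the control arrays, the mean of the PTH arrays was 1.34-fold higher. That mean includes the PTH array at 4.96, where the probe was not above background, so the value is not a strict lower bound. The order of the groups was that of the tested probe.

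**Figure D1:**
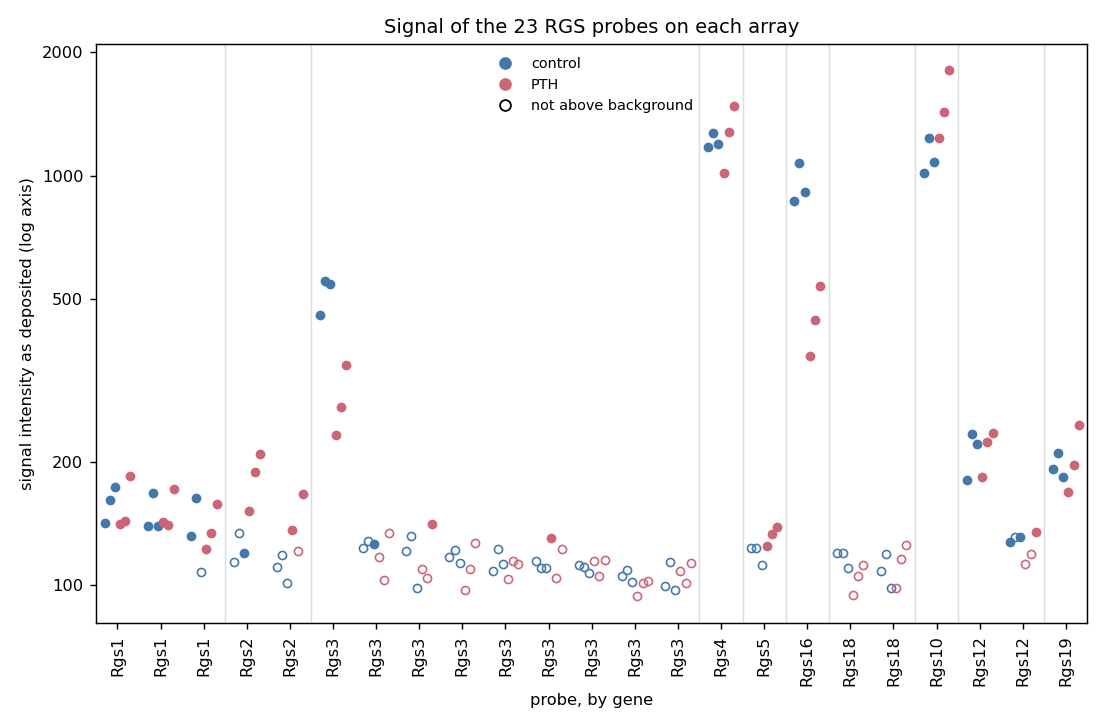
Signal intensity as deposited (log axis) for the 23 probes of 10 RGS genes on the 3 control arrays (blue) and 3 PTH arrays (red), with open points where the probe was not above background. A reader should see that *Rgs16* and *Rgs3* had clear signal in both groups and separated between them, that *Rgs2* rose from near background, and that 8 of 9 *Rgs3* probes and both *Rgs18* probes stayed near 100.

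*Rgs16*, an R4 member that acts on Gi and Gq, was measured far above background. Its single probe had normalized log2 signals of 9.91, 9.95 and 9.69 in control and 8.40, 8.43 and 8.28 with PTH. The lowest control array lay more than 1 log2 unit above the highest PTH array. The means were 9.85 ± 0.14 and 8.37 ± 0.08 (SD, n = 3 each), and the log2 difference was -1.48 (SE 0.13, 95% interval -1.78 to -1.19, limma adjusted p = 0.0019). Only 11 of the genes tested had a more negative difference. The deposited signals, 864, 1073 and 909 against 362, 444 and 536, showed the same separation without any correction. In bulk tissue such a fall does not separate fewer cells of a type from less message per cell.

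*Rgs3*, another R4 member acting on Gi and Gq and made in several forms that share the RGS domain, also fell. Its tested probe read 8.83, 8.84 and 8.84 in control and 7.47, 7.50 and 7.45 with PTH. The arrays of each group lay within 0.05 of each other on the log2 scale. The means were 8.84 ± 0.0045 and 7.47 ± 0.021 (SD, n = 3 each), and the log2 difference was -1.36 with an SE of 0.11 from the variance that limma shares across probes (95% interval -1.62 to -1.10, adjusted p = 0.0015). The deposited signals were 457, 552 and 545 in control and 233, 273 and 345 with PTH.

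This result rests on 1 of 9 *Rgs3* probes. The other 8 were above background on at most 1 array of the 6, with normalized log2 signals between 4.33 and 5.54, and were not tested. Of these, 5 were above background on no array. The table does not state which transcripts they read, so the fall is a value of this probe and not of every *Rgs3* form.

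Among the other R4 genes, *Rgs4* had the clearest signal. *Rgs4*, a small RGS protein for Gi and Gq, read 10.39, 10.20 and 10.13 in control and 10.15, 10.18 and 9.95 with PTH. The groups overlapped, and the log2 difference of -0.14 (95% interval -0.45 to 0.17, limma adjusted p = 0.70) had an interval that did not reach the changes of *Rgs16*, *Rgs3* and *Rgs2*.

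*Rgs5*, a gene known from pericytes and vascular smooth muscle, read 4.96, 4.58 and 4.74 in control and 5.26, 5.42 and 5.07 with PTH. All PTH arrays lay above all control arrays by a small margin. All 3 PTH arrays but 0 control arrays put the probe above background, so it entered the test only through the PTH group, and control has only a bound. Against that bound PTH was at least 1.15-fold higher, and the limma adjusted p was 0.20. Of 9 genes tested from a list of 11 pericyte and smooth muscle markers, 0 were called, 3 had an unadjusted p under 0.05 in limma and all of these were lower. The summed normalized signal of that list, on the linear scale, was 5951 to 6477 in control and 5411 to 5682 with PTH. *Myh11* and *Cnn1*, markers of mature smooth muscle, were above background on no array.

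*Rgs1*, best known from B cells, has 3 probes, and all were tested. Their log2 differences were -0.10, 0.04 and 0.10, with limma adjusted p-values from 0.86 to 0.94 and overlapping groups each time. For the brightest probe the 95% interval ran from -0.54 to 0.34. Of 10 lymphocyte markers on the array, 6 had no probe above background on any array, and 0 of the 2 tested were called or had an unadjusted p under 0.05 in limma.

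*Rgs18*, an RGS gene of platelets, megakaryocytes and other blood cells, has 2 probes. Their deposited signals lay between 94 and 125 on all 6 arrays, with no array above background, so no level or fold is given. Platelet and megakaryocyte markers were measured in the same preparations: 8 of 9 on the array could be tested, 0 were called and 4 had an unadjusted p under 0.05 in limma, all of these lower. Their summed normalized signal was 1493 to 1741 in control and 1096 to 1205 with PTH.

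The R12 and RZ genes were not called. *Rgs10*, which acts on Gi and is abundant in macrophages and osteoclasts, read 10.16, 10.15 and 9.96 in control and 10.47, 10.34 and 10.26 with PTH. The PTH arrays all lay above the control arrays, but the log2 difference of 0.27 (SE 0.13, 95% interval -0.03 to 0.57) did not pass in limma (adjusted p = 0.39). The list of macrophage markers, 8 genes all tested, had 0 called, with 1 higher and 3 lower at an unadjusted p under 0.05 in limma. Of 6 osteoclast markers tested, 3 were called higher, and at that level 5 were higher and 0 lower. The part of either cell type in the signal of *Rgs10* was not tested.

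*Rgs12*, a large protein with several other domains beside its RGS domain, read 6.71, 7.04 and 7.01 in control and 6.87, 7.06 and 6.61 with PTH, a log2 difference of -0.07 (95% interval -0.45 to 0.30, limma adjusted p = 0.89). Its second probe, above background on 3 arrays, gave -0.24 (adjusted p = 0.60). *Rgs19*, also known as GAIP and acting on Gi, read 6.89, 6.73 and 6.53 against 6.59, 6.72 and 6.72, a log2 difference of -0.04 (95% interval -0.35 to 0.28, limma adjusted p = 0.94). In both genes the groups overlapped.

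**Figure D2:**
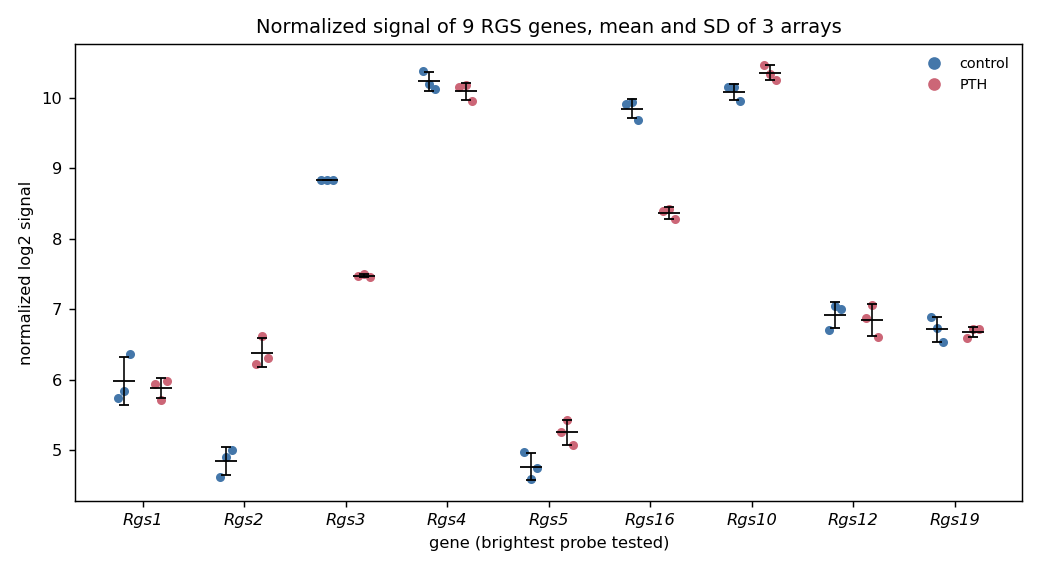
Normalized log2 signal of the brightest tested probe of 9 RGS genes, with a point per array (control blue, PTH red) and black bars for the mean and SD of 3 arrays. The groups separate for *Rgs2* (PTH higher), *Rgs3* and *Rgs16* (PTH lower), and by a small margin for *Rgs5* and *Rgs10*. Heights of different probes are not comparable as amounts of message.

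Counted by overlap alone, 5 of the 9 genes tested had groups that did not overlap, 3 with PTH above and 2 with PTH below, where 21.9% of all genes tested did not overlap. The median log2 difference was -0.07 over the 9 genes and 0.005 over all genes tested. *Rgs2* and *Rgs5* entered these counts through the arrays on which they were higher, and the counts describe the list without adding support to any gene.

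Messages of marrow and surface cells were still measured in these preparations, and some of these markers moved with PTH. Of 9 neutrophil markers tested, 5 were called lower (*Retnlg*, *Mpo*, *Ngp*, *Lcn2* and *Ltf*), and the summed signal of the list was 54487 to 55329 in control and 34885 to 39574 with PTH. Both haemoglobin genes tested from the red cell list, *Hba-a1* and *Hbb-b1*, were called lower, with sums of 8521 to 9978 and 2329 to 2606, while *Epb4.2* of the same list was above background on no array. Of 6 osteoclast markers tested, 3 were called higher (*Oscar*, *Acp5* and *Mmp9*), with sums of 13248 to 14483 in control and 17331 to 21710 with PTH, and *Calcr* and *Atp6v0d2* were above background on no array. The others tested were not called: *Tm7sf4* at 1.08, *Ctsk* at 0.36 and *Nfatc1* at -0.13 (limma adjusted p = 0.074, 0.33 and 0.72). Of 9 endothelial markers and 1 skeletal muscle marker tested, limma called 0, and 1 endothelial marker was lower at an unadjusted p under 0.05. The part of these cells in the changes of *Rgs2*, *Rgs3* and *Rgs16* was not tested.

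The osteocyte and osteoblast list checked the labelled tissue. Of its 15 genes on the array, 13 were tested. The matrix genes *Dmp1* and *Mepe* and the endopeptidase gene *Phex*, which mark osteocytes, were above background on all 6 arrays. *Sost*, the osteocyte inhibitor of Wnt signalling, was above background on 3 control arrays and 1 PTH array, and *Fgf23* and *Runx2* on none. In this list 3 genes were called lower (*Ibsp*, *Mepe* and *Sp7*) and 0 higher, and the summed signal was 71398 to 77876 in control and 60004 to 64171 with PTH. At an unadjusted p under 0.05 in limma, 10 of the 13 were lower and 1 was higher, and the median log2 difference was -0.54. *Dmp1*, *Phex* and *Sost* were lower by -1.21, -0.88 and -1.21 without being called (limma adjusted p = 0.056, 0.076 and 0.15). *Gp38*, an early osteocyte marker, was higher by 0.70 (adjusted p = 0.056). Whether the fall of *Rgs3* and *Rgs16* followed the osteocyte genes was not tested.

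The genes whose values over the 6 arrays were most like each called RGS gene are given as a description, over 9613 candidate genes above background on all arrays. *Rgs3* was closest to *Ibsp*, encoding bone sialoprotein (r = 1.00), *Hk3*, a hexokinase, and *Panx3*, a pannexin of bone and cartilage cells. *Rgs16* was closest to *Hbb-b1*, a beta globin, *Cd177*, a neutrophil surface antigen, and the unnamed *3830422K02Rik*, all at r = 1.00 after rounding. *Rgs2* was closest to *C130099A20Rik*, *Tsrc1* and *Exoc7*, with r from 0.994 to 0.998. With 6 arrays that fall into 2 levels any gene that separates the groups with little spread reaches a high r.

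The receptor and the G proteins that RGS proteins act on were read from the same fit. The table lists the PTH receptor as *Pthr1*, with 3 probes. Its brightest probe read 9.98, 10.19 and 9.87 in control and 8.84, 8.47 and 8.62 with PTH, so that all PTH arrays were lower. The log2 difference was -1.37 (SE 0.15, limma adjusted p = 0.0069). The second probe was called at -1.30, and the third, at -0.74, was not (adjusted p = 0.14).

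No G protein subunit was called. Of 28 listed, 26 were on the array and 18 were tested, and by the brightest probe limma gave 0 called, with 0 higher and 1 lower at an unadjusted p under 0.05. Over all 25 subunit probes tested, 0 were called, 1 was higher and 2 were lower at that level. By the brightest probe the log2 differences ran from -0.32 to 0.32 with a median of -0.01. *Gnas*, the Gs alpha subunit, differed by -0.06 (adjusted p = 0.92), and *Gnaq* and *Gna11*, both Gq alpha subunits, by 0.01 and 0.32 (adjusted p = 0.99 and 0.37). *Gnai2*, the Gi alpha subunit with the lowest unadjusted p, read 10.99, 11.05 and 11.00 in control and 10.69, 10.72 and 10.68 with PTH, a difference of -0.32 (limma adjusted p = 0.24), and its second probe gave -0.35 (adjusted p = 0.23). *Gna13*, a G12-class alpha subunit, gave 0.12 by its brightest probe (adjusted p = 0.76) and 0.49 by its second, with all PTH arrays higher (adjusted p = 0.25). No setting tried called a subunit by its brightest probe.

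Of 15 other RGS genes and partners listed, 10 were on the array and 6 of these had no probe above background. The 2 tested were *Gnb5*, the beta subunit that pairs with R7 RGS proteins, and *Rgs17*, an RZ member. Neither was called by limma or had an unadjusted p under 0.05 by its brightest probe. The second *Rgs17* probe gave -0.62 with all PTH arrays lower (adjusted p = 0.12).

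**Figure D3:**
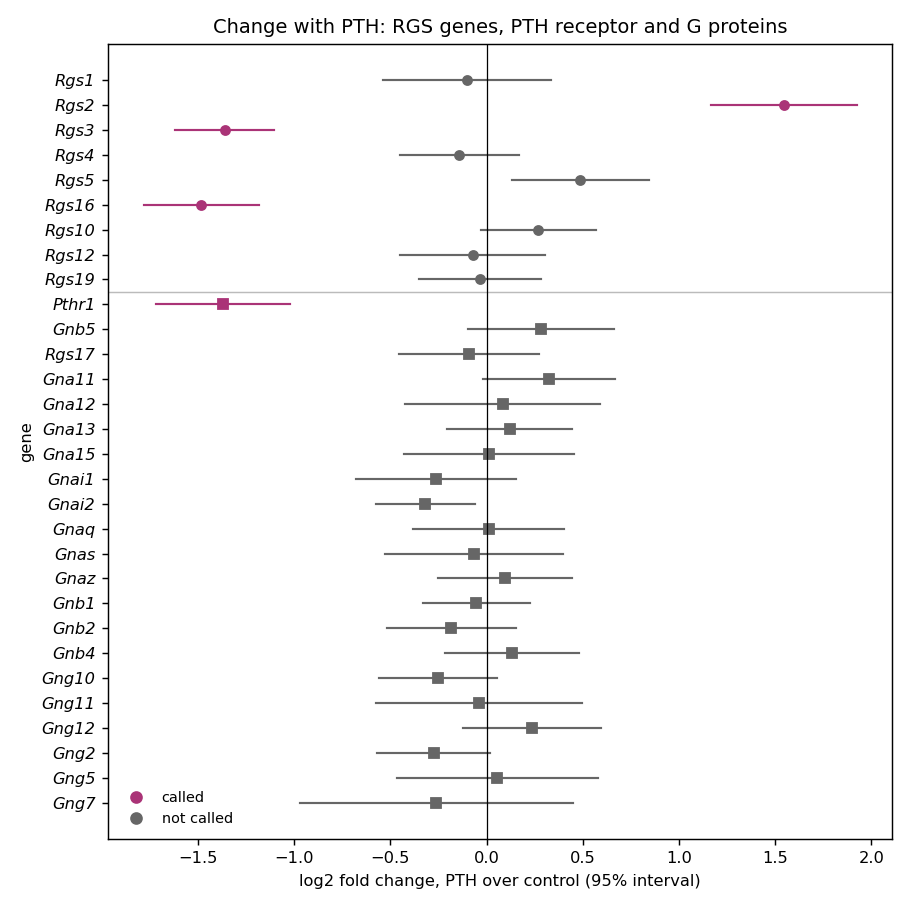
Log2 fold change, PTH over control, with its 95% interval for the brightest tested probe of the 9 RGS genes (circles, above the line) and of the PTH receptor *Pthr1*, 2 other RGS genes or partners and 18 G protein subunits (squares). Called genes are coloured. *Rgs2* lies at 1.55, and *Rgs16*, *Pthr1* and *Rgs3* at -1.48, -1.37 and -1.36, while the brightest probes of all subunits tested lie between -0.32 and 0.32.

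Of the 10 genes, 6 lie on chromosome 1 in the RefSeq annotation of GRCm38.p6. *Rgs2*, *Rgs13*, *Rgs1*, *Rgs21* and *Rgs18* follow each other there with no other protein-coding gene between them. Of these neighbours *Rgs2* rose, the *Rgs1* groups overlapped, and *Rgs13* and *Rgs18* were above background on no array. *Rgs5* and *Rgs4* are also adjacent, and neither was called. *Rgs16* lies beside *Rgs8*. *Rgs8* and *Rgs21* have no row of that symbol in the table.

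The calls of the 3 genes were followed through other processing and with each array left out. *Rgs16* ranged from -1.57 to -1.26 and *Rgs3* from -1.45 to -1.01 over 15 alternatives, with a limma adjusted p under 0.05 in all 15. *Rgs2* was positive with an adjusted p under 0.05 in the 14 alternatives that tested it, but its size ran from 0.56 to 2.06. The upper value came from background subtraction and depends on its floor of 16. The filter that needs all 6 arrays above background did not test *Rgs2*. With each array left out in turn the adjusted p of *Rgs2* lay between 0.018 and 0.027. *Rgs10* was positive in all 15 and passed in none. *Rgs5* was tested in 11 of the 15, not under the filter on all 6 arrays or with a PTH array left out, and was positive in those 11 and passed in none.

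**Figure D4:**
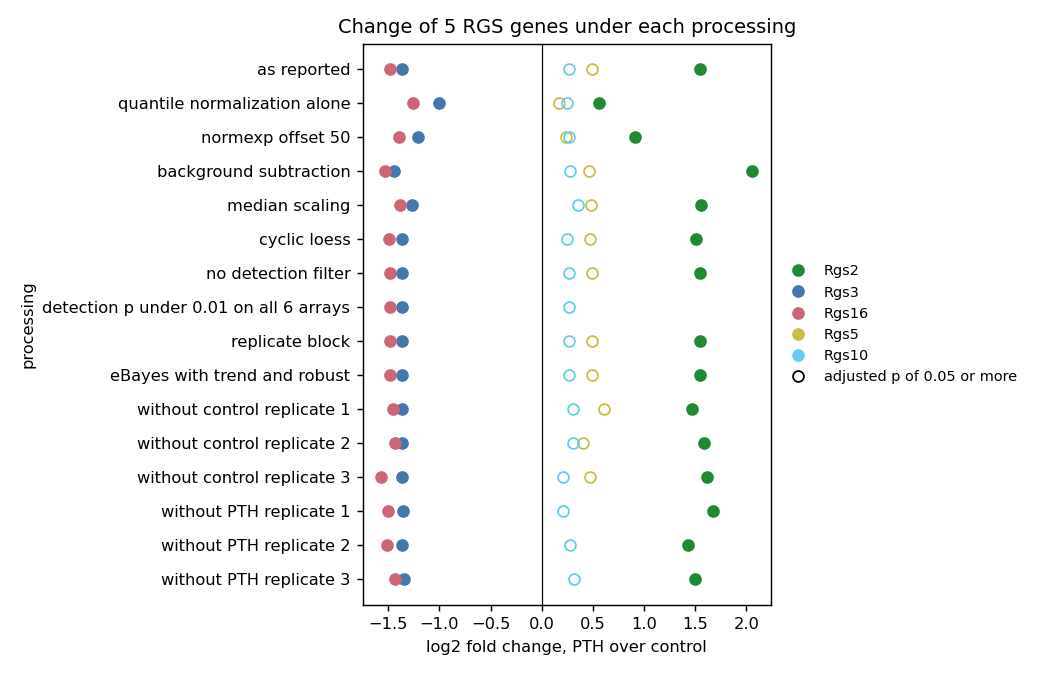
Log2 fold change, PTH over control, of 5 RGS genes under the reported processing and each alternative, with filled points for a limma adjusted p under 0.05. *Rgs16* and *Rgs3* stay below -1 throughout, and *Rgs2* varies most with background treatment, from 0.56 to 2.06, and has no point where it was not tested. The 2.06, with background subtraction, depends on the floor of 16 used there.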

How the data were processed

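RNA of 3 control and 3 PTH preparations was hybridized to an Illumina mouse array. The authors deposited a linear signal intensity per probe and array, handled in GenomeStudio, with neither background subtraction nor normalization. They deposited beside it a detection p-value per probe, set against the negative controls of the array. Arrays had median signals of 111 to 129 and 34.2% to 38.4% of probes above background, at a detection p under 0.05, and 3 arrays a group limit the precision.

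The neqc function of limma 3.58.1 in R 4.3.3 gave background-corrected, quantile-normalized log2 values with an offset of 16. A probe was tested when above background on at least 3 of 6 arrays. The PTH and control arrays were fitted with lmFit and eBayes, and p-values were adjusted by Benjamini and Hochberg across the 16214 probes. A gene was read from its brightest tested probe, and for the RGS genes the other tested probes are given beside it. The procedure was tested on simulated data. Groups came from the sample titles. The text names all 10 RGS genes, and from the other lists the called genes and the members defining a cell type or role. Similarity is Pearson's r over the 6 arrays, 3 genes for each called gene. A bound sets the bright group against the dimmest detected probe of each array in the dim group, or the probe's own value where higher.

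The genes, the lists and the tests were chosen with earlier results of these data known. Promoters were taken from RefSeq for GRCm38.p6 by symbol. Alternatives were other background and normalization methods, filters, a replicate block, eBayes with trend and robust, an adjusted p under 0.1 and leaving out each array.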

Additional observations from a re-analysis of the deposited data

How the results depend on the processing

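Among the RGS genes, 3 were called under every alternative except quantile normalization alone and a detection p under 0.01 on all 6 arrays, where 2 (*Rgs16* and *Rgs3*) were called. *Rgs2* fell below 1.5-fold in the former and was not tested in the latter. The count over all genes, 207, was 65 with median scaling (52.3% higher, against 39.6%), 369 with a trended robust eBayes, 367 at an adjusted p under 0.1 and 50 to 95 with 1 array left out. The log2 difference of uncalled genes turned sign: that of *Rgs19* was 0.044 with median scaling and -0.128 to 0.0525 with 1 array left out (0.0525 without control 1, 0.0071 without PTH 1). With 1 array left out, that of *Rgs1* ran from -0.224 to 0.0945 (0.0945 without control 3) and that of *Rgs12* from -0.18 to 0.0456 (0.0456 without PTH 3).

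The replicate numbers were not taken to pair the arrays: same-numbered arrays had deviations from their group means that correlated at 0.067, 0.064 and 0.27, and not every array correlated best with its own number. Array 3 of each group did, and the share of probes above background was close by number (34.8% and 34.2%, 36.3% and 36.1%, 38.4% and 38.4%), and whether same-numbered arrays shared a preparation or run was not tested. With the replicate block 44 genes were called, *Rgs2*, *Rgs3* and *Rgs16* among them, and *Pthr1* was not.

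Signal over background is a limit: *Rgs2*, *Rgs5*, *Rgs18* and 8 *Rgs3* probes lay near it, where 3 arrays a group give only a rough size.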
